A study of Mus musculus with 4 samples.

Results

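Tumor B was compared with tumor A across 4 Affymetrix arrays, chosen by the tumor given in the labels. Each tumor had 2 arrays, 1 of the expansion class and 1 of the extinction class, and these 4 arrays are the whole series. Both tumors were B16 melanoma, a transplantable pigmented tumor line, grown in C57BL/6 mice that carried a multi-color Cre reporter, and were dissociated 2 weeks after inoculation. Flow cytometry kept endothelial cells that lacked the leukocyte marker CD45 and carried the vessel markers CD31 and CD144. In such reporter mice Cre recombination gives cells and their descendants 1 of several colors. Expansion denotes the frequent clone of a tumor and extinction the rare one; unrelated cells can share a color, so a class need not be 1 clone. No label gives a treatment, a genotype, an age or a sex that separates tumor A from tumor B, and the labels do not say which animal each tumor came from. The tumor, its host and any difference in handling can therefore not be told apart. The difference between tumors was taken within each clone class, for 18193 named genes, and a gene was followed where its sign was the same in both classes.

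The endothelium of a tumor is fed by signals from tumor cells, stroma and infiltrating leukocytes, and its gene expression shifts with inflammation, oxygen supply and growth rate. Acute phase proteins are secreted proteins that liver and other tissues make in inflammation, chiefly in answer to interleukin-6 and interleukin-1, through STAT and C/EBP transcription factors. Mitosis genes are transcribed late in the cell cycle, and their messages mark dividing cells. Suprabasal epidermal genes belong to the differentiating layers of skin, the tissue under which B16 tumors are usually grown.

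All 4 arrays carried endothelial markers, but to different degrees, and melanoma transcripts were present beside them. The median log2 level of 20 pan-endothelial genes was 8.76 and 10.73 in tumor A (expansion, then extinction) and 11.28 and 9.71 in tumor B. The 14 measured melanoma genes ran the other way, with medians of 12.36, 7.52, 6.98 and 11.73 in the same array order. Tumor B was thus higher in endothelial and lower in melanoma genes in the expansion class, and the reverse held in the extinction class. For bulk RNA of sorted cells, fewer cells of a type and less RNA per cell cannot be told apart. The defining leukocyte gene Ptprc (CD45) lay between 3.63 and 4.27, low on the array scale. Hybridization controls were highest on extinction B: the bioC probe sets averaged 10.40, 10.44, 10.61 and 11.62, and the polyadenylated spike-ins 11.16, 10.92, 11.26 and 11.87, in that order. For Gapdh, the 3′ control minus the 5′ control was 2.577, 2.485, 3.211 and 2.9 log2 units in the same array order. This gap was thus wider on both tumor B arrays than on both tumor A arrays. The matching Actb gaps were 2.811, 2.181, 2.717 and 2.683, with opposite signs in the classes. Any part of such end bias in the differences between the tumors was not tested. Array medians lay between 5.73 and 5.83. Precision is limited by the number of arrays, since array signals have no read depth.

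**Figure D1:**
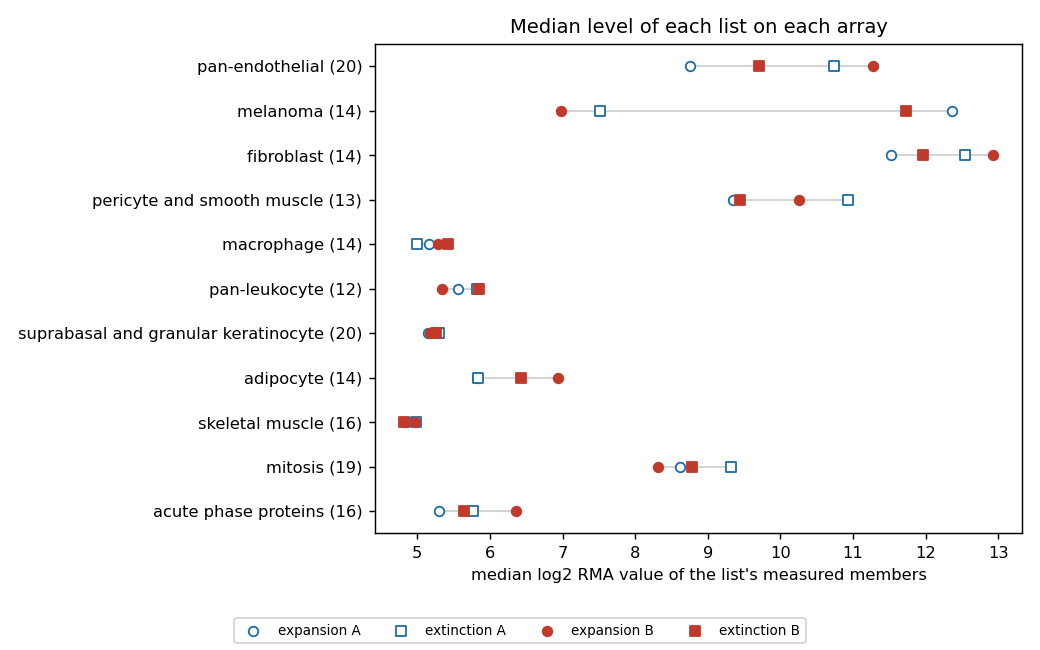
Median log2 RMA value of the measured members of 11 gene lists (vertical axis, with the number of members) on each of the 4 arrays; open symbols are tumor A, filled symbols tumor B, circles expansion and squares extinction. Melanoma genes stood at 12.36 and 11.73 on expansion A and extinction B and at 7.52 and 6.98 on the other arrays, while leukocyte, macrophage, keratinocyte and skeletal muscle lists stayed below 6 on all of them.

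The tumors differed in the same direction in both classes for a minority of genes. Of the 18193 genes, 2476 (13.6%) were higher and 3534 (19.4%) lower in tumor B in both classes, and 12090 had opposite signs. Both tumor B arrays lay above both tumor A arrays for 1699 genes (9.34%) and below them for 2523 (13.9%). At least 1.5-fold in both classes, 60 genes were higher (0.33%) and 98 lower (0.539%). At 2-fold in both, 13 were higher (0.0715%) and 10 lower (0.055%), while 1361 were 2-fold apart in opposite directions. Across genes, the difference in the expansion class correlated with that in the extinction class at Pearson r = -0.66 (Spearman correlation -0.55); the class differences share no array, and genes are not independent replicates. In the expansion class alone 2002 genes were at least 2-fold higher and 1308 lower in tumor B, against 765 and 1464 in the extinction class.

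No probe set passed limma's test between the tumors. With Benjamini-Hochberg adjustment over 45037 probe sets, 0 were called higher (0%) and 0 were called lower (0%). Without adjustment 648 were under 0.05, of which 276 were higher and 372 lower in tumor B. That is less than a share of 0.05 of the 45037 probe sets. The 2 arrays of a tumor differ in clone class and in melanoma and endothelial levels, which enter the spread that the test uses. The low share can therefore not be read as absence of a difference between the tumors. The adjusted p was 1 for every gene named here, so the values describe these 4 arrays. For a single gene, an exact permutation test of 2 arrays against 2 cannot give a two-sided p below 0.333. Below, a value without a unit is a log2 RMA level, and the first of a tumor's values is expansion and the second extinction. Differences are tumor B minus tumor A with limma's standard error (SE, n = 2 arrays per tumor). These 2 arrays are the clone classes of a tumor, so the SE does not measure a spread between tumors.

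**Figure D2:**
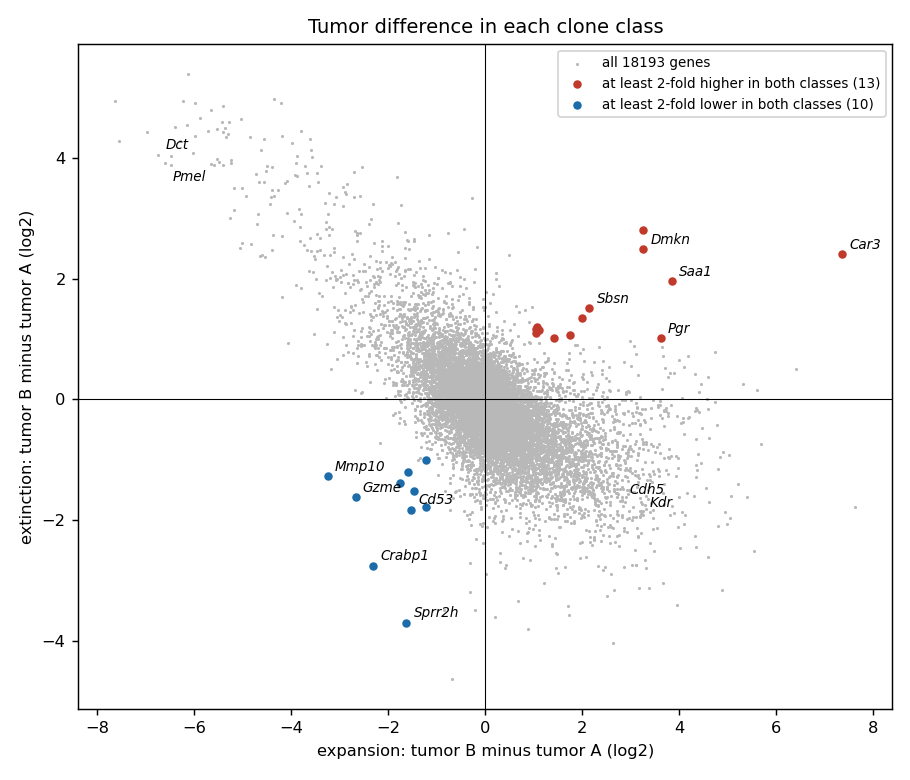
Difference between the tumors (tumor B minus tumor A, log2) in the expansion class (horizontal) against the extinction class (vertical), 1 point per gene. The 13 genes at least 2-fold higher (red) and 10 at least 2-fold lower (blue) in both classes lie off the falling diagonal that most genes follow, where Dct and Pmel mark the melanoma end and Kdr and Cdh5 the endothelial end.

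Of the genes named as higher in tumor B, 3 belong to the epithelial lists. Dermokine (Dmkn), a protein secreted by suprabasal keratinocytes, was at 5.17 and 5.61 in tumor A and at 8.42 and 8.09 in tumor B, 2.87 ± 0.25 higher, or 7.31-fold. Suprabasin (Sbsn), secreted by the same layers, was at 8.17 and 8.66 in tumor A and at 10.31 and 10.17 in tumor B, 1.83 ± 0.24 higher, and all 3 of its probe sets had these signs. Keratin 23 (Krt23), an epithelial intermediate filament protein, was at 5.85 and 5.89 in tumor A and at 7.84 and 7.23 in tumor B, 1.66 ± 0.27 higher. In each of these genes both tumor B arrays stood above both tumor A arrays, and the arrays of 1 tumor lay closer together than the tumors.

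Dmkn and Sbsn are neighbours in the genome, and other epidermal genes showed no common direction. Krtdap, the next gene beside Dmkn, also expressed in suprabasal keratinocytes, was at 4.72 and 4.80 in tumor A and at 5.16 and 4.72 in tumor B, with opposite signs in the classes. Of 20 measured suprabasal and granular keratinocyte genes, 6 were higher (30.0%) and 5 lower (25.0%) in both classes, beside 13.6% and 19.4% of all genes. Apart from Dmkn and Sbsn, the members with 1 sign in both classes lay between 3.26 and 7.08 and differed little: the cornified envelope gene Ivl was at 5.12 and 5.46 in tumor A and at 4.82 and 5.12 in tumor B. Of 17 simple epithelium genes, 5 were higher and 1 lower in both classes. The epithelial adhesion gene Epcam was the lower one, at 7.90 and 8.45 against 7.79 and 7.39, while the keratin Krt18 was at 3.93 and 4.10 against 4.61 and 4.52. The part of skin cells in these values was not tested.

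Acute phase genes were the list with the most members higher in tumor B in both classes. Of 16 measured members 10 (62.5%) were higher and 1 was lower, and 8 did not overlap between the tumors, where 13.6% of all genes were higher and 9.34% higher without overlap. The list's median difference was 0.79 in the expansion class and 0.27 in the extinction class, against 0.03 and -0.08 over all genes. Between the tumor means it was 0.50, and it was 0.23 without expansion A and 0.33 without expansion B.

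Serum amyloid A1 (Saa1), carried on lipoprotein in inflammation, was at 6.20 and 6.71 in tumor A and at 10.05 and 8.66 in tumor B, a 7.47-fold difference, and both of its probe sets had these signs. Haptoglobin (Hp), which binds free hemoglobin, was at 9.27 and 10.56 in tumor A and at 12.26 and 11.53 in tumor B, 1.98 ± 0.58 higher. Lipocalin 2 (Lcn2), which sequesters bacterial iron carriers, was at 6.71 and 8.64 in tumor A and at 10.89 and 9.36 in tumor B. In all these genes expansion B was the highest array and expansion A the lowest, so the step between the tumors was larger in the expansion class.

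The lipopolysaccharide binding protein gene Lbp was at 9.56 and 11.59 in tumor A and at 13.28 and 12.11 in tumor B. Saa3, the serum amyloid made outside the liver, was near the top of the scale throughout, at 13.81 and 14.12 against 14.53 and 14.44. Saa2 was at 5.20 and 4.95 against 6.46 and 5.38, and the heme carrier Hpx at 5.40 and 5.69 against 6.26 and 5.92. These 4 genes did not overlap between the tumors either. The fibrinogen chain Fgg was dim, at 4.12 and 4.20 against 4.46 and 4.51. Fgb was the lower member, at 4.72 and 4.92 against 4.69 and 4.68. Orm1 and Orm2 were dim and overlapped, and Cp, Orm3, Serpina3n, Itih4 and Fga had no common sign. The list moved beside the endothelial genes in the expansion class, where tumor B was higher in both, and against them in the extinction class; the part of cell composition was not tested.

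The promoters of Saa1 and Lcn2 are shown because both genes belong to this list and lay higher in both tumor B arrays. The windows are 300 bases around the RefSeq start on the GRCm38.p6 build, 5′ to 3′ on the gene's strand, with matches to the C/EBP pattern TTNNGNAA on either strand in capitals. Saa1 lies at chr7:46742931-46743230 on the minus strand and Lcn2 at chr2:32387690-32387989 on the minus strand.
Saa1: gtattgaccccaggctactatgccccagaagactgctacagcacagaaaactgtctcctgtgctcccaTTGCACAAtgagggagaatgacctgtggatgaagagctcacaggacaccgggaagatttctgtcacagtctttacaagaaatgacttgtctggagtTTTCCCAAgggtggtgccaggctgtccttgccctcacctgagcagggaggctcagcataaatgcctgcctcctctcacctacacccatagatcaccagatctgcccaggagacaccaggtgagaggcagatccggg
Lcn2: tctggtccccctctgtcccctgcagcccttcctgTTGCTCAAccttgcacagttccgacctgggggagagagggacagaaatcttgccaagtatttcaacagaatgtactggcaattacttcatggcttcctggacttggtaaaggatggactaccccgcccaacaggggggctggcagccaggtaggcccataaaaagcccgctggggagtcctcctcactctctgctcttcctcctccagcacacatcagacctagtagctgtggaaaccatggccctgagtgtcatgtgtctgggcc
The Saa1 window held 2 such matches and the Lcn2 window 1. Of the 13 list members with a promoter in the RefSeq table, 11 held the pattern (84.6%), as did 40.7% of 32851 mouse promoters of that length. The STAT pattern TTCNNNGAA was in 3 of the 13 (23.1%) and in 8.3% of all promoters. A match is a run of letters and was not shown to be a bound site.

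**Figure D3:**
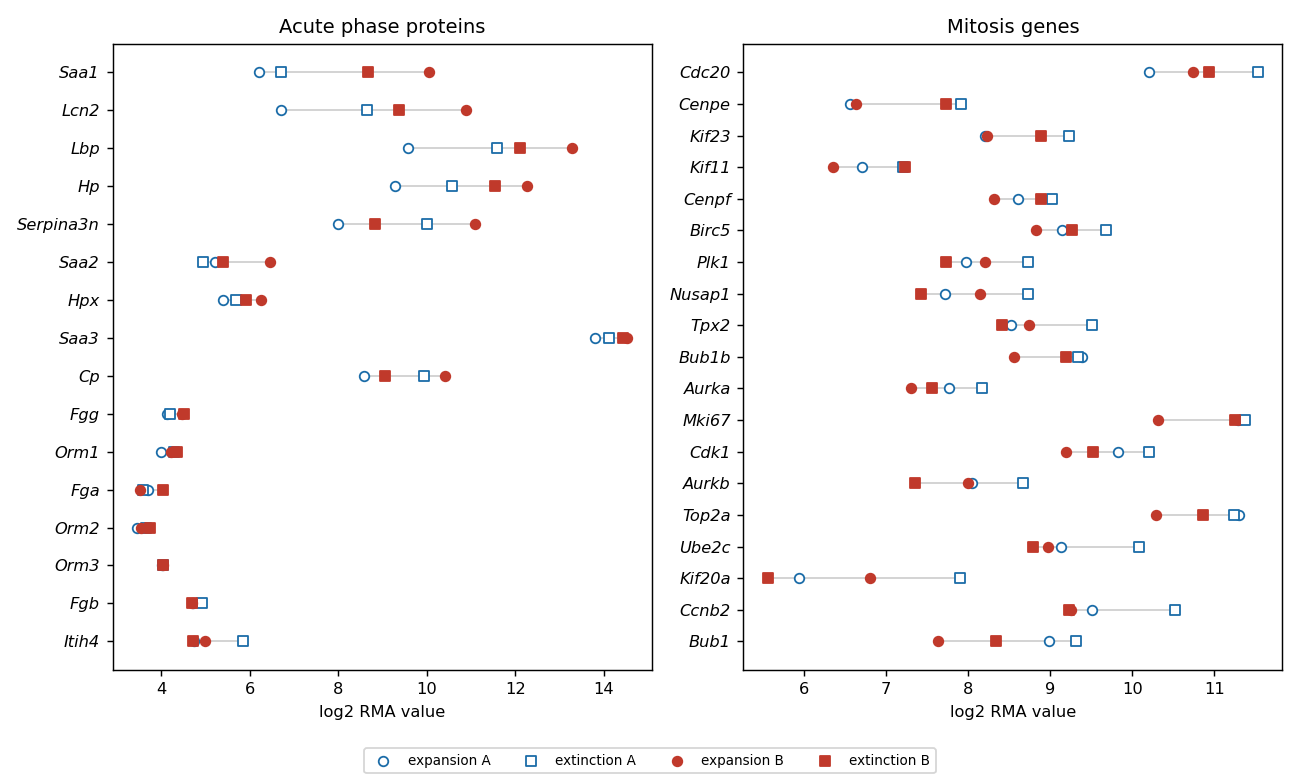
Log2 RMA value on each array for the 16 measured acute phase genes (left) and 19 mitosis genes (right); open symbols are tumor A, filled symbols tumor B, circles expansion and squares extinction. For Saa1, Lcn2, Lbp and Hp both filled symbols lie to the right of both open ones; for Bub1, Ccnb2, Ube2c and Cdk1 both lie to the left.

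Other inflammatory lists held smaller shares of members higher in both classes, where 13.6% of all genes were higher and 19.4% lower. The chemokine list had 4 of 24 members higher (16.7%) and 0 lower. Cxcl13, which attracts B cells, was at 5.89 and 9.96 in tumor A and at 12.31 and 10.46 in tumor B, and the monocyte attractant Ccl8 at 9.61 and 10.23 against 10.80 and 10.45. Cxcl5, which attracts neutrophils, was at 10.46 and 11.76 against 11.88 and 12.20. In these 3 genes the lower tumor B array stood above the higher tumor A array by less than the tumor A arrays differed from each other. The interferon response list had 4 of 22 members higher (18.2%) and 1 lower in both classes, and the complement list 4 of 12 higher (33.3%) and 1 lower. The complement regulator Cd55 was the widest of these, at 4.92 and 6.33 in tumor A and at 8.92 and 6.99 in tumor B, with 3 of 3 probe sets alike. The inflammatory cytokine list had 3 of 18 members higher (16.7%) and 4 lower (22.2%). Interleukin-18 (Il18), a cytokine released by inflammasomes, was at 8.05 and 7.44 in tumor A and at 8.96 and 8.38 in tumor B, higher within each class by 0.92 and 0.94.

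The progesterone receptor gene Pgr was at 7.21 and 8.82 in tumor A and at 10.83 and 9.83 in tumor B, 2.32 ± 0.73 higher, 1.51 higher without expansion A and 0.85 higher with its probe sets averaged. Both tumor B arrays were above both tumor A arrays, although its 2 dimmer probe sets had opposite signs in the classes. Of 15 steroid receptors and hormone targets, 4 were higher (26.7%) and 2 lower (13.3%) in both classes, beside 13.6% and 19.4% of all genes. Zbtb16, a zinc finger gene induced by progestins and glucocorticoids, was at 5.54 and 5.97 against 7.98 and 6.61, with 3 of 3 probe sets alike. Klf9, a glucocorticoid-induced factor, was at 12.26 and 12.34 against 13.34 and 12.60, but 1 of its 7 probe sets had these signs. The glucocorticoid targets Fkbp5, Tsc22d3 and Sgk1 and the receptor genes Esr1 and Nr3c1 had opposite signs in the classes.

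Carbonic anhydrase 3 (Car3), abundant in fat and slow muscle, differed most in size and least evenly. It was at 4.14 and 4.06 in tumor A and at 11.49 and 6.46 in tumor B, 4.88 ± 1.91 higher, and 2 of its 4 probe sets had these signs. The difference was 2.37 without expansion B and 7.40 without extinction B, and 1.40 when its probe sets were averaged. Both tumor A arrays were near the low end of the scale, and expansion B stood far above extinction B. The fat hormone Adipoq was at 3.78 and 3.76 in tumor A and at 6.78 and 3.75 in tumor B, so it was high on expansion B alone. Of 14 measured adipocyte genes 2 were higher (14.3%) and 1 lower (7.1%) in both classes, beside 13.6% and 19.4% of all genes. The list's median level was 6.94 on expansion B and between 5.82 and 6.43 on the other arrays. Adipoq therefore accompanied Car3 on expansion B but not on extinction B; the part of fat cells in its difference was not tested. Car8, a relative without enzyme activity, was at 3.88 and 4.87 in tumor A and at 8.62 and 5.64 in tumor B, with 3 of 3 probe sets alike.

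The remaining genes named for being higher in both classes had smaller or dimmer differences. The lymphocyte transcription factor Ikzf4 was at 6.76 and 6.41 against 7.83 and 7.60, with 1 of 3 probe sets alike. The peptide neurotensin (Nts) was at 5.18 and 5.05 against 6.93 and 6.12. The cadherin Cdh9 was at 4.87 and 4.86 against 5.91 and 5.95, which was the most even of these differences at 1.07 ± 0.14. The retrotransposon-derived Rtl3, at 6.44 and 6.08 against 7.49 and 7.24, and the oxysterol hydroxylase Cyp39a1, at 5.21 and 5.46 against 6.18 and 6.99, did not overlap either. Cped1 overlapped between the tumors, at 6.76 and 8.43 against 8.18 and 9.44, and its difference of 1.22 lay between 0.38 (without expansion A) and 2.05 (without extinction A). Ints12, of the Integrator complex, was at 6.07 and 7.07 against 7.17 and 8.003, with 1 of 2 probe sets alike. Its difference of 1.02 was 0.52 without expansion A and 0.60 without extinction B. Further members of the 13 genes, outside the rule for names and picked after their values were seen, were the clone-named 5031426D15Rik, at 4.44 and 5.28 against 7.69 and 8.09, and Lyz1, a dim lysozyme gene whose probe sets can share signal with Lyz2.

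**Figure D4:**
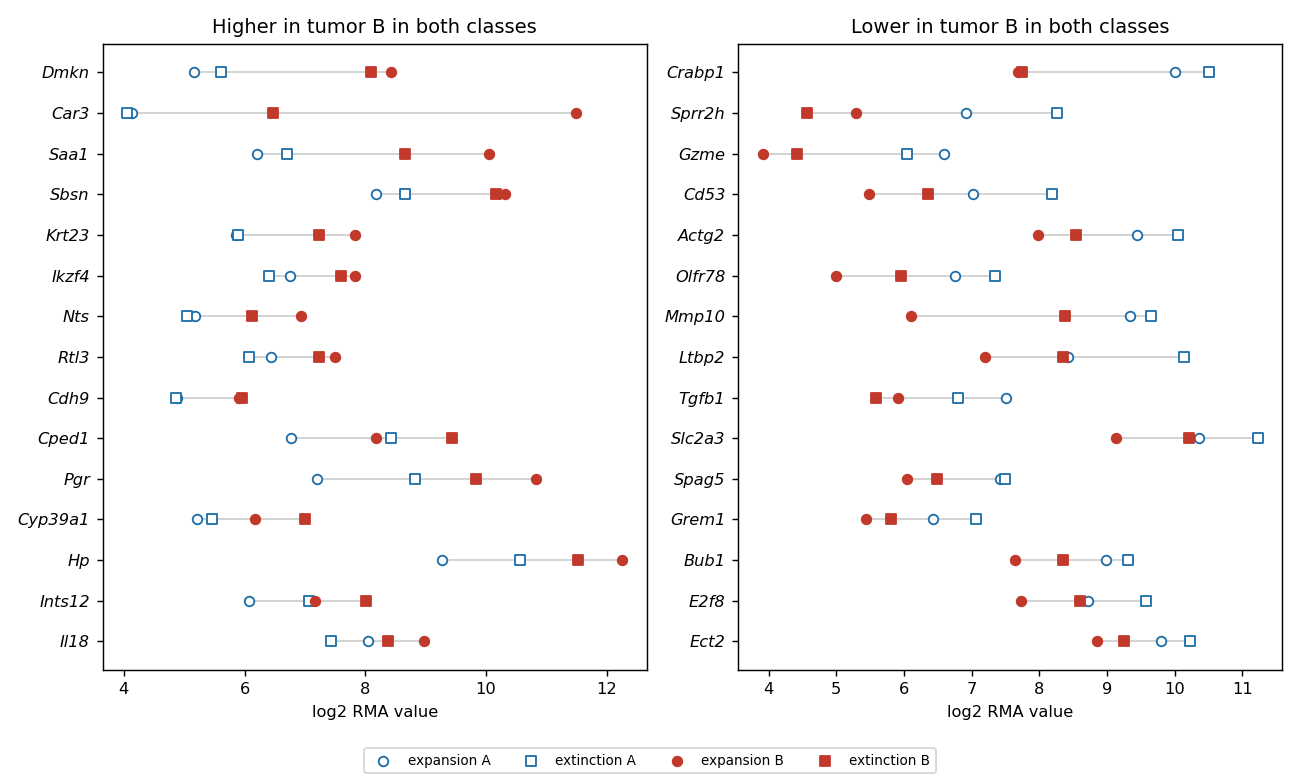
Log2 RMA value on each array for the 15 genes named as higher (left) and the 15 named as lower (right) in tumor B in both classes; symbols as for the list levels. In the left panel Cped1 is the gene whose tumors overlap; the other genes of both panels have both tumor B arrays on 1 side of both tumor A arrays.

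Among the genes lower in tumor B, the cellular retinoic acid binding protein gene Crabp1 ranked first by its smaller class difference. It was at 10.01 and 10.50 in tumor A and at 7.69 and 7.75 in tumor B, a difference of -2.54 ± 0.24. Of 18 retinoid genes 1 was higher (5.6%) and 2 were lower (11.1%) in both classes, beside 13.6% and 19.4% of all genes. The lower ones were Crabp1 and the retinoic acid hydroxylase Cyp26a1, dim at 4.67 and 4.54 against 4.42 and 4.41. Rarres2, which encodes the chemoattractant chemerin, was the 1 higher member, at 11.96 and 12.51 against 12.89 and 12.80. The related binding protein Crabp2, the synthesis enzymes Aldh1a1, Aldh1a2 and Aldh1a3 and the receptors Rara, Rarb and Rarg had opposite signs in the classes.

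The epidermal envelope gene Sprr2h was at 6.92 and 8.26 in tumor A and at 5.29 and 4.57 in tumor B, a difference of -2.66 ± 0.59. Its probe set carries a suffix for shared sequence, so signal from other Sprr2 genes cannot be told apart. Of the 14 small proline-rich proteins and stress keratins 2 were higher (14.3%) and 5 lower (35.7%) in both classes. Of all genes 13.6% were higher and 19.4% lower. The members Sprr2d, Sprr2f, Sprr2i and Sprr2k had opposite signs. The signal of the Sprr2h probe set and the pair Dmkn and Sbsn thus ran in opposite directions between the tumors. That signal cannot be credited to Sprr2h alone.

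The granzyme gene Gzme was at 6.59 and 6.04 in tumor A and at 3.91 and 4.42 in tumor B, a difference of -2.15 ± 0.32. Its probe set can also share signal with related granzymes. The leukocyte tetraspanin Cd53 was at 7.01 and 8.19 in tumor A and at 5.48 and 6.36 in tumor B, and its dimmer probe set had opposite signs in the classes. Its difference of -1.68 was -1.09 without extinction A and -0.85 when both probe sets were averaged. Both genes lay lower on both tumor B arrays. Of 12 measured T and NK cell genes 2 (16.7%) were higher and 5 (41.7%) lower in both classes, beside 13.6% and 19.4% of all genes, with list medians between 5.19 and 5.36. Of 12 pan-leukocyte genes 2 were higher and 2 lower (16.7% each). Among 14 macrophage genes 5 (35.7%) were higher and 1 (7.1%) lower, the latter Cd68 at 6.26 and 6.00 against 5.72 and 5.51. The macrophage list was mostly dim, with a median level of 5.22. Only 3 of its 14 members reached the median level of all probe sets, and 1 of these was higher in both classes. Csf1r, the macrophage growth factor receptor, was at 8.11 and 9.70 against 9.91 and 9.97, with 1 of 3 probe sets alike. The part of leukocytes that escaped the CD45 gate was not tested.

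Of the genes named as lower, 3 belong to the TGF-beta and BMP list. The ligand gene Tgfb1 was at 7.50 and 6.80 in tumor A and at 5.92 and 5.59 in tumor B, a difference of -1.40 ± 0.33, with 1 of 2 probe sets alike. Ltbp2, a microfibril-associated relative of the latent TGF-beta binding proteins, was at 8.43 and 10.13 against 7.20 and 8.35. Its difference of -1.51 was -2.36 without expansion A, -0.66 without extinction A and -0.93 without expansion B. The BMP antagonist Grem1 was at 6.42 and 7.06 against 5.44 and 5.80. In all of them both tumor B arrays were the lowest, by a narrow margin for Ltbp2. Inhba, the activin A subunit, was lower within each class but overlapped between the tumors, at 11.003 and 12.27 against 9.97 and 11.65. These were the 4 of 21 list members (19.0%) lower in both classes, a share near the 19.4% of all genes, and 0 were higher. The other members, among them Tgfb2, Tgfb3, Bmp2, Bmp4, Acvrl1 and Id1, had opposite signs.

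Of 14 matrix metalloprotease genes 5 (35.7%) were lower in both classes without overlap, where 13.9% of all genes were, and 1 was higher. The stromelysin Mmp10 was at 9.35 and 9.65 in tumor A and at 6.10 and 8.38 in tumor B, a difference of -2.26 ± 0.88. It was -1.12 without expansion B and -3.40 without extinction B. The gelatinase Mmp9 was at 8.73 and 9.27 against 6.57 and 8.55, with both probe sets alike, and the membrane-bound Mmp14 at 11.25 and 11.63 against 11.01 and 10.76. The collagenase Mmp13 was bright on extinction A alone, at 4.44 and 8.26 against 3.76 and 3.64. The dim Mmp7 was the fifth. Their median over the whole list was 0.01 in the expansion class and -0.54 in the extinction class, since members such as Mmp2, Mmp3 and Mmp11 had opposite signs.

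Smooth muscle gamma-actin (Actg2) was at 9.44 and 10.05 in tumor A and at 7.98 and 8.54 in tumor B, a difference of -1.49 ± 0.34. Among 13 pericyte and smooth muscle markers 5 (38.5%) were lower and 0 higher in both classes, 3 of them without overlap, beside 19.4% and 13.9% of all genes. The actin gene Acta2 was at 13.43 and 13.84 against 13.07 and 13.17, the actin-binding Tagln at 11.57 and 12.30 against 11.42 and 10.95, and the pericyte regulator Rgs5 at 13.13 and 13.38 against 12.90 and 12.41. Extinction A was the highest array for each. Pdgfrb, Des, Notch3, Kcnj8 and Abcc9 were among the 8 members with opposite signs in the classes. The list's median difference was 0.32 in the expansion class and -1.05 in the extinction class. Between the tumor means it was -0.52, and it turned to 0.03 without extinction A and was -0.15 without extinction B.

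Of 19 measured mitosis genes 11 (57.9%) were lower in tumor B in both classes and 0 higher, and 9 of them did not overlap, beside 19.4% and 13.9% of all genes. The other 8 had opposite signs in the classes. The median difference was -0.25 in the expansion class and -0.61 in the extinction class. Between the tumor means it was -0.49, and -0.09 without extinction A. Bub1, a spindle checkpoint kinase, was at 8.99 and 9.32 in tumor A and at 7.64 and 8.34 in tumor B, a difference of -1.16 ± 0.33, with 1 of 2 probe sets alike. The mitotic kinase Cdk1 was at 9.83 and 10.21 against 9.19 and 9.52, its partner cyclin Ccnb2 at 9.51 and 10.53 against 9.26 and 9.23, and the ubiquitin enzyme Ube2c at 9.13 and 10.08 against 8.97 and 8.79. Both tumor B arrays were the lowest in each of these genes, and extinction A was the highest array.

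Mki67, the usual marker of proliferation, was at 11.28 and 11.38 in tumor A and at 10.31 and 11.25 in tumor B, and the topoisomerase Top2a at 11.31 and 11.24 against 10.29 and 10.86. For these genes expansion B stood apart below, and extinction B was close to tumor A for Mki67. Aurka, Aurkb and Bub1b were the other non-overlapping members, while Cenpf and Birc5 were lower within each class but overlapped. Cenpe, Plk1, Kif11, Kif20a, Kif23, Cdc20, Nusap1 and Tpx2 had opposite signs. Bub1, Bub1b, Top2a, Aurka, Aurkb and Cenpf each had at least 1 dimmer probe set with other signs. Among genes named for their size, the spindle protein Spag5 was at 7.42 and 7.49 against 6.04 and 6.49, the cell cycle repressor E2f8 at 8.71 and 9.57 against 7.73 and 8.61, and the cytokinesis factor Ect2 at 9.79 and 10.23 against 8.85 and 9.26. These genes were chosen for being lower in both classes, so their direction adds nothing to the list's count. For E2f8 the tumors were only narrowly apart, and its difference of -0.98 was -0.55 without extinction A and -0.54 without expansion B.

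The promoters of Cdk1 and Ect2 are shown because these cell division genes were lower on both tumor B arrays. Capitals mark the CHR pattern TTTGAA and the CCAAT pattern, each on either strand, so that TTCAAA and ATTGG are matches too. The windows are 300 bases around the RefSeq start on GRCm38.p6, 5′ to 3′ on the gene's strand, at chr10:69352863-69353162 on the minus strand for Cdk1 and at chr3:27153829-27154128 on the minus strand for Ect2.
Cdk1: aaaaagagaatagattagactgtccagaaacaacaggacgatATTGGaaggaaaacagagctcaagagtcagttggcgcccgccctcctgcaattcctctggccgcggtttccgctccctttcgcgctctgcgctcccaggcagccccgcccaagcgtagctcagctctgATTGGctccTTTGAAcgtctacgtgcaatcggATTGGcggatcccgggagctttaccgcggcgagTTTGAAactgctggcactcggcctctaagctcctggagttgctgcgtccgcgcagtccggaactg
Ect2: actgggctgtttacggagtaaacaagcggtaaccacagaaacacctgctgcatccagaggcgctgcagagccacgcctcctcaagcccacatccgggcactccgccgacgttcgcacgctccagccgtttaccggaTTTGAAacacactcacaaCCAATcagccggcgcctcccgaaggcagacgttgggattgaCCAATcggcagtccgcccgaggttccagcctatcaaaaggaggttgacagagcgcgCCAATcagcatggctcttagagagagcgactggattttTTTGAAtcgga
Each window held 2 CHR and 3 CCAAT matches, and no match overlapped another. Of 16 mitosis genes with a promoter in the table, 12 held the CHR pattern (75.0%) and 14 the CCAAT pattern (87.5%), against 17.9% and 37.4% of all 32851 promoters. These counts cover all 16 genes, whether or not their sign was the same in both classes.

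Of 21 measured DNA replication genes 8 (38.1%) were lower and 0 higher in both classes, and 6 did not overlap, beside 19.4% and 13.9% of all genes. Cdc45, part of the replicative helicase, was at 7.70 and 7.93 in tumor A and at 6.71 and 7.31 in tumor B, with 1 of 2 probe sets alike. The helicase subunits Mcm3 and Mcm5 were at 10.59 and 10.37 against 9.46 and 10.24 and at 10.95 and 10.97 against 10.04 and 10.89, so extinction B was barely below tumor A. Rrm1 and Rrm2, the subunits of ribonucleotide reductase, and the clamp loader Rfc4 also did not overlap. Mcm2, Mcm4, Mcm6, Mcm7, Pcna and the other members had opposite signs. After the values were quantile normalized again, 5 members were lower in both classes. The list's median difference between the tumor means was -0.44, and it was -0.02 without expansion B and -0.20 without extinction A. Its median was -0.60 in the expansion class and -0.12 in the extinction class.

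Among genes of energy metabolism, 8 of 16 respiratory chain subunits (50.0%) were lower and 0 higher in both classes, 6 without overlap. Of all genes 19.4% were lower in both classes and 13.9% lower without overlap. Uqcrc1, of complex III, was at 10.98 and 10.82 in tumor A and at 10.36 and 10.17 in tumor B, -0.63 ± 0.17. The ATP synthase subunit Atp5b was at 12.47 and 12.25 against 11.45 and 11.69, and Ndufs1, of complex I, at 10.52 and 9.78 against 9.43 and 9.57. Uqcrc2, Uqcrfs1 and Atp5a1 were the other members without overlap, and Sdha and Cox5a overlapped. Steps in the list were small, with medians of -0.38 and -0.06 in the expansion and extinction classes, against 0.03 and -0.08 over all genes. In the extinction class 7 of the 16 members were higher in tumor B, as were 7490 of all 18193 genes. The list's median thus lay below that of all genes in the expansion class only. Of 11 ribosomal protein genes 7 (63.6%) were lower and 1 higher in both classes, by less still: Rplp0 was at 13.96 and 14.12 against 13.77 and 13.85, and the list's median differences were -0.12 and -0.07. Between the tumor means the list's median was -0.089, near the -0.078 of the brightest 4548 genes. After the values were quantile normalized again, 5 ribosomal members were lower in both classes. All measured members of both lists had a mean level at or above the median of the array. Of the brightest 4548 genes 5.61% were higher and 19.8% lower in both classes, while of the dimmest 4549 genes 23.5% were higher and 19.7% lower.

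Of 14 fatty acid oxidation genes and PPAR targets 2 were higher (14.3%) and 4 lower (28.6%) in both classes. Of all genes 13.6% were higher and 19.4% lower. Hadha, of the mitochondrial beta-oxidation complex, was at 6.97 and 6.48 against 6.03 and 5.88, and the lipid droplet coat gene Plin2 at 11.61 and 11.67 against 11.21 and 11.22. Neither gene overlapped between the tumors.

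In the hypoxia response list 6 of 20 members (30.0%) were lower and 0 higher in both classes, 5 of them without overlap, beside 19.4% and 13.9% of all genes. Of these, 2 were lower in both classes after the values were quantile normalized again. Ankrd37, a hypoxia-induced ankyrin repeat gene, was at 7.89 and 8.50 in tumor A and at 7.24 and 7.51 in tumor B. The glycolysis brake Pdk1 was at 11.28 and 10.73 against 10.08 and 10.67, Bnip3, of mitophagy, at 11.88 and 11.67 against 10.76 and 11.63, and Vegfa, the endothelial growth factor, at 9.51 and 9.15 against 8.69 and 9.09. Extinction B lay just below extinction A in the last 3 of these, and only the brightest probe sets of Pdk1 and Vegfa had these signs. The glucose transporter Slc2a3, which is not on the list, was at 10.36 and 11.23 against 9.13 and 10.22, a difference of -1.12 ± 0.55, and 3 of its 4 probe sets had these signs. Without expansion B the difference was -0.58 and without extinction A -0.69. The list's median difference between the tumor means was -0.38, and it turned to 0.09 without expansion B. Slc2a1 overlapped, and Car9, Egln3, Adm, Ndrg1 and Lox had opposite signs. The glycolysis list had 1 of 13 members higher and 1 lower in both classes.

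The last named gene, Olfr78, an odorant receptor also made in chemosensory cells and vessels, was at 6.76 and 7.35 in tumor A and at 4.99 and 5.96 in tumor B. Of its 4 probe sets 2 had these signs, and the other probe sets were dim.

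Lists that mark endothelial identity held few genes with a common sign within the classes. Of the pan-endothelial genes 0 of 20 and of the capillary genes 0 of 15 had the same sign in both classes, beside 33.03% of all genes. The arterial, venous and tip cell lists each had at most 1 member in a direction. Kdr, which encodes a receptor for VEGF, was at 8.82 and 11.62 in tumor A and at 12.06 and 9.75 in tumor B. It ran with the pan-endothelial genes, as did the Y-linked Eif2s3y, at 6.77 and 8.83 against 9.13 and 7.71, and Kdm5d, at 4.86 and 6.79 against 7.11 and 5.09. Xist, the X-inactivation RNA, lay between 5.39 and 5.60 on all arrays. The clock gene Arntl, also called Bmal1, and its target Dbp had opposite signs in the classes too, with Dbp at 6.93 and 8.27 against 9.18 and 6.65. The core clock gene Per2 was dim, between 5.18 and 5.46.

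The counts of these lists differed when the arrays closer in melanoma and endothelial levels were set against each other across the classes, a comparison of lists chosen after the data were seen. In these pairs, expansion B was compared with extinction A and extinction B with expansion A. Of the pan-endothelial genes 14 of 20 (70.0%) were then higher in tumor B in both pairs, with median differences of 0.34 and 0.98, and of the capillary genes 13 of 15 (86.7%). Interferon response genes were higher in both pairs for 20 of 22 members (90.9%) and MHC class I genes for 10 of 12 (83.3%). Melanoma genes were lower in tumor B in both pairs for 11 of 14 members (78.6%), with median differences of -0.566 and -0.693. The pairs were thus not equal in melanoma level, and its part in these counts was not tested. Pericyte and smooth muscle genes were lower in both pairs for 10 of 13 members (76.9%). Of all genes 4259 (23.4%) were higher and 5354 (29.4%) lower in both pairs. Tumor and clone class change together in each pair, so they cannot be told apart there; averaged over both pairs, the difference is the same difference of tumor means.

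**Figure D5:**
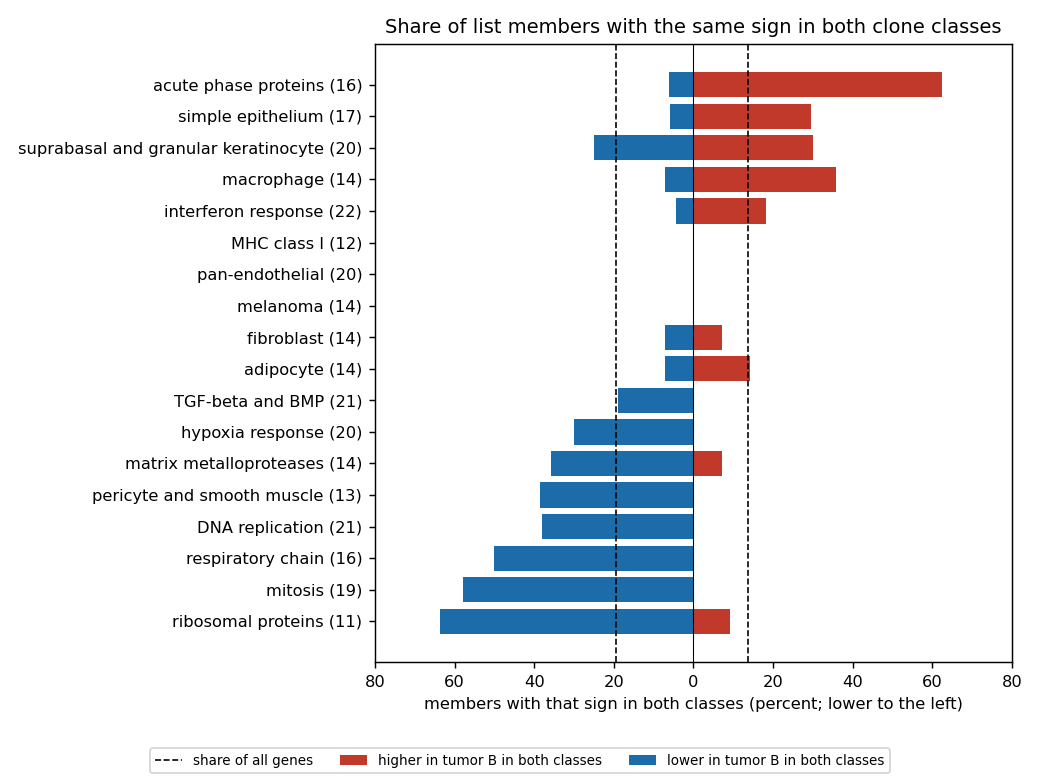
Share of the measured members of 18 gene lists (number of members in brackets) that were higher in tumor B in both clone classes (red, to the right) or lower in both (blue, to the left), in percent; dashed lines mark the shares of all genes, 13.6% higher and 19.4% lower. Acute phase proteins reach 62.5% to the right, and mitosis genes 57.9% to the left.

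The 2-fold limit that chose the genes at the head of each ranking had members close on both sides. Just inside it were Slc2a3, whose smaller class difference was 1.01 in size, Pgr, also at 1.01, and Cped1, at 1.02. Just outside it were Spag5 at 0.996, Grem1 at 0.985 and Bub1 at 0.972.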

How the data were processed

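Per the labels' protocols, TRIzol-extracted RNA went through 2 rounds of amplification before biotin labelling and hybridization to Affymetrix Mouse430_2 arrays. The deposited log2 values came from RMA (affy), per the submitters' processing notes, with versions not given in the sources used here. Because RMA normalizes the 4 arrays jointly, each array's values depend on the other arrays.

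Of 45101 probe sets, 64 controls were set aside. Names came from the platform annotation and a RefSeq table of GRCm38.p6 (34945 tested probe sets had 1 symbol, 932 several, 9160 none listed; 34741 matched the RefSeq table). The probe set with the highest mean of 4 arrays stood for a gene; 9010 of 18193 genes had more than 1. For the tumor test, limma 3.58.1 (lmFit, eBayes) ran under R 4.3.3 with 2 residual degrees of freedom and a threshold of 0.05, checked on simulated data. Within a class there is 1 array per tumor, so class differences have no test. By their titles, tumor A is biological replicate 1 and tumor B biological replicate 2 of each clone class. The 2 arrays of a tumor are its clone classes and do not repeat a tumor. The spread within a tumor therefore includes the clone class.

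The 61 gene lists held 925 genes, of which 838 were measured and 87 were not analysed here. Up to 15 genes per direction were named by the smaller of their class differences, among genes at least 2-fold apart in both classes (then 1.5-fold) and with a mean in the higher tumor of 5.83 or more, which is the probe set median; clone names were left out. Up to 3 genes per list and 13 genes by name followed; Ddx3y was not analysed here. Other list members were chosen after seeing their values. The comparison, the lists and the rule were chosen with earlier results of these data known. Alternatives were renormalization, median centring, probe set averages, a level filter, a 1.5-fold limit, clone class as a block, trend and robust eBayes, a melanoma covariate and leaving out each array; cross-class pairs of arrays were a further alternative, and their use for lists and same-sign counts was added after seeing the data.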

Additional observations from a re-analysis of the deposited data

Results flagged for a closer look

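For 2 lists every measured member differed between the tumors one way in the expansion class and the other way in the extinction class. Opposite signs were common, at 12090 of all 18193 genes. All 20 pan-endothelial and all 15 capillary genes had them too, with 1 member of each list running against the others. That contrast between the classes rests on single arrays and was not tested. The 14 melanoma genes were lower in tumor B in expansion, by a median of -5.66, and higher in extinction, by a median of 3.97. The 12 MHC class I genes, which present peptides to cytotoxic T cells, were higher in tumor B in expansion, by a median of 1.89, and lower in extinction, by a median of -0.85. MHC class I thus ran with the pan-endothelial genes, whose medians were 2.62 and -1.26.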

How the results depend on the processing

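limma called 0 probe sets in each direction under all alternatives run (again quantile normalized, median centred, level filter, trend and robust eBayes, clone class as a replicate block, melanoma covariate, each array left out); with the block 177 probe sets had an unadjusted p under 0.05 and with the covariate 2825, against 648. The 32 genes named for their size kept their sign in 96 of 96 values under renormalization, centring and probe set averages. They were chosen for their size, and averaging leaves genes with 1 probe set unchanged, so these signs were largely fixed in advance. Averaging reduced some differences, for Olfr78 from -1.579 to -0.387 and for E2f8 from -0.975 to -0.42. Without 1 array the sign of genes that do not overlap is also fixed by their choice. The difference of 9 genes then moved by over 1.5 times (Car3, Cped1, Pgr, Ints12, Cd53, Mmp10, Ltbp2, Slc2a3 and E2f8). Averaging the probe sets of a gene left 8 genes at least 2-fold higher and 6 lower in both classes, and 1.5-fold in both classes gave 60 and 98. Restricted to genes whose mean reached the probe set median, 925 were higher and 2212 lower in both classes, and 628 and 1656 did not overlap; 5 acute phase members remained higher and 3 metalloproteases lower, fewer genes being tested. Cross-class pairs of arrays (expansion B with extinction A, extinction B with expansion A) gave 4259 higher and 5354 lower genes, 131 at 2-fold higher but 14 at 2-fold lower (13 and 10 within classes), and 10 pericyte members lower. Quantile normalizing again left 2 hypoxia and 5 DNA replication members lower in both classes; the cause was not tested. The metalloprotease median of 0.01 turned to -0.024 after median centring, -0.068 with probe set averages and -0.044 with the level filter, and lay between -0.319 and 0.124 without single arrays; those of hypoxia (-0.915 to 0.088) and pericytes (-0.908 to 0.03) also changed sign without 1 array. Leaving out an array leaves 1 clone class, so the counts are then of that class alone: 765 to 2002 genes 2-fold higher and 1308 to 1464 lower, 7490 to 9599 of any size higher and 8538 to 10666 lower. Without 1 array, 3876 to 6039 genes were higher and 5688 to 6379 lower without overlap. Members lower in the class left were 7 to 11 of 14 for metalloproteases, 12 to 14 of 20 for hypoxia and 12 to 18 of 19 for mitosis. They were 14 to 15 of 21 for DNA replication, 9 to 15 of 16 for the respiratory chain and 5 to 13 of 13 for pericytes. Of all 18193 genes 8538 to 10666 were lower in the class left. The smaller counts for metalloproteases, hypoxia, the respiratory chain and pericytes lay near or below the share of all genes in that class. Among the other 53 lists, 173 of 265 counts lay within 1.5 times under alternatives that kept 4 arrays.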

Other observations

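Genes beyond those named in the report were looked through among the 158 at least 1.5-fold apart in both clone classes, and those given here were chosen with their values known. The hydrogen peroxide producing oxidase Duox1 was at 4.84 and 4.87 in tumor A (expansion, then extinction) and at 6.68 and 5.77 in tumor B, and its maturation factor Duoxa1, the next gene on the chromosome, at 6.998 and 7.28 against 9.34 and 8.14. The chitinase-like Chil1 was at 6.10 and 7.38 against 9.75 and 8.25, the decoy interleukin-1 receptor Il1r2 at 7.51 and 8.97 against 11.18 and 9.69, and the scavenging chemokine receptor Ackr2 at 5.84 and 5.52 against 7.04 and 6.30. None of these genes overlapped between the tumors, and expansion B was the highest array for each.

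Among 16473 measured genes in the ordered RefSeq table, 153 of those genes were found and formed 3 adjacent pairs, each higher in tumor B. These were Duoxa1 with Duox1, Sbsn with Dmkn, and Col4a4 with Col4a3, basement membrane collagen chains that share a promoter region. How many such pairs genes picked at random would give was not estimated. Col4a4 was at 7.46 and 6.52 against 8.29 and 7.995 and Col4a3 at 4.63 and 4.76 against 6.36 and 5.42. The growth factor gene Igf2 was at 5.92 and 5.54 against 7.96 and 6.17, the Wnt agonist Rspo3 at 4.88 and 5.19 against 6.17 and 5.88, and the RANKL decoy receptor Tnfrsf11b at 5.16 and 4.91 against 5.87 and 6.35.

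Among the lower genes, the macrophage enzymes Arg1, at 4.86 and 5.92 against 4.03 and 4.40, and Acod1, at 6.16 and 5.29 against 5.25 and 4.46, were dim. The lysosomal protease Ctsc was at 10.74 and 11.08 against 9.61 and 10.26. Further cell division genes lay lower on both tumor B arrays: the condensin subunit Ncapg2, at 9.17 and 9.04 against 7.97 and 8.24, and the polymerase subunits Pole, at 8.12 and 8.12 against 7.19 and 7.46, and Pold2, at 8.45 and 8.30 against 7.72 and 7.48.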
